A study of Rattus norvegicus with 9 samples.

Results

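Genes of myostatin, follistatin and follistatin-like proteins, activin and TGF-beta receptors and Smad proteins were followed in the gastrocnemius, a mixed muscle of the calf, of rats. The set was given as 10 genes, Mstn, Fst, Fstl1, Fstl3, Acvr2a, Acvr2b, Tgfbr2, Smad2, Smad3 and Smad7, and takes every probe set of the array whose single gene symbol is one of them. This found 16 of 31042 probe sets, for 9 of the 10 genes and of 14217 genes on the array with a single symbol. No probe set carried the symbol Tgfbr2, so this receptor is not analysed here. Probe sets dim on average over the 9 arrays were left out of the tests, and 13 of the 16 member probe sets, for 9 genes, were tested among 18625.

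The animals were male Wistar rats of 250 g that received hormones by continuous infusion from implanted pumps for 7 days, 3 rats per group and 1 array per rat. The vehicle group received propylene glycol. The dexamethasone group received this synthetic glucocorticoid in vehicle at 0.7 mg/kg/day. The combination group received the same dexamethasone dose together with testosterone, given as 28 mg/kg/day in the sample labels and as 20 mg/kg/day in the series design. Neither the part of the muscle taken nor the age of the rats is given in the sources used here, and no group received testosterone alone. The study asked what testosterone does to the changes that dexamethasone makes in muscle transcripts.

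Myostatin is a secreted protein of the TGF-beta superfamily, made mainly by muscle fibres, that limits muscle mass. It and the related activins bind the type II receptors encoded by Acvr2a and Acvr2b, which recruit a type I receptor that phosphorylates Smad2 and Smad3. These join Smad4 and enter the nucleus. Follistatin and follistatin-like 3, the products of Fst and Fstl3, bind the ligands and keep them from the receptors, and Smad7 inhibits signalling at the receptor. Fstl1 encodes a secreted glycoprotein with a follistatin-type domain that is made largely by mesenchymal cells and is not a classical myostatin antagonist.

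Promoter sequences were examined because the treatment is a ligand of the glucocorticoid receptor, a transcription factor, and the members signal through Smads, which also bind DNA. RefSeq windows of 250 bases before the annotated start (build GRCr8) were matched for 8 of the 10 members; Mstn and Fst were not matched. Both strands were searched for the palindrome of the glucocorticoid response element (AGAACA, 3 bases of any kind, then TGTTCT), for its single arm AGAACA and for the Smad binding motif CAGAC. Any palindrome also holds the single arm. Fstl1 is shown as the member that fell with dexamethasone, Smad3 as the member whose mean was next lowest relative to vehicle, and Fstl3 as the only matched member with any of the 3 motifs. Capitals mark AGAACA and CAGAC or their reverse complements.
Fstl1, chr11:76454054-76454303, minus strand: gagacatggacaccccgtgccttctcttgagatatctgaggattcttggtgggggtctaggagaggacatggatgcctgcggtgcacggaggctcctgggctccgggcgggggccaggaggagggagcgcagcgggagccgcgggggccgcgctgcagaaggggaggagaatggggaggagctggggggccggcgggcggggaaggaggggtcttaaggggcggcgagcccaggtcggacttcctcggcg
Smad3, chr8:73132325-73132574, minus strand: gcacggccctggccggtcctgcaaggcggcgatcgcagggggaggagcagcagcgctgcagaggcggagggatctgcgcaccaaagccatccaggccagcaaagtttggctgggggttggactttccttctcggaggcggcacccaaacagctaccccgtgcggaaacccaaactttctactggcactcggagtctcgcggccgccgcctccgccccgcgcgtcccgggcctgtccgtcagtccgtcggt
Fstl3, chr7:10579845-10580094, minus strand: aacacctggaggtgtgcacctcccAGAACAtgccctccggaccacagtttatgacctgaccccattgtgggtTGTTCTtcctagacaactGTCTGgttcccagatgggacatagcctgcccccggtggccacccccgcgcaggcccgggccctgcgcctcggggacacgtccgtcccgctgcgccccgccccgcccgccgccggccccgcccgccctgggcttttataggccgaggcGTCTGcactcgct
The Fstl3 window held 2 matches to AGAACA and 2 to CAGAC, and no match to the palindrome. Of 33469 windows of the same length, 17.5% held AGAACA, 42.9% held CAGAC and 0.012% held the palindrome. A match is a description of the letters in the window and nothing more.

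All values are the log2 of the deposited intensity plus 16, quantile normalized over arrays. A difference is therefore on the log2(intensity + 16) scale, whose floor is 4, and the change of a dim probe set is understated on it. Levels of different probe sets are not comparable with one another. The arrays fell into 3 technical batches by how the deposited values were scaled and by their poly-A spike signals. Batch A held 4 arrays (vehicle replicates 1 and 3, dexamethasone replicate 1 and combination replicate 1). Batch B held 3 (replicate 2 of each group) and batch C held 2 (dexamethasone replicate 3 and combination replicate 3). The Gapdh signal at the 3' end was 4.94 and 6.22 times that at the 5' end in batch C, against 1.06 to 1.17 times in the other 7 arrays. Batch C holds no vehicle array. Muscle fibre markers had means of 14.52 to 14.75 on every array. They lie at percentiles 99.2 to 100 of mean signal. Quantile normalization leaves values little room to differ between arrays while they stay among the brightest. The mean of the 7 slow fibre markers was 8.54 in combination replicate 1 and 12.54 in combination replicate 3, against 13.66 to 14.18 on the other arrays.

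Fstl1 was the only member that changed past the threshold. Dexamethasone lowered it 4.82-fold by its brightest probe set, and neither Mstn, the antagonist genes Fst and Fstl3, the receptors nor the Smads among the members passed in any of the 3 comparisons. In dexamethasone against vehicle, 2 of 13 member probe sets passed the limma test at an adjusted p under 0.05, both lower and both of Fstl1, where 1.05% of all tested probe sets passed and 0.483% passed as lower. In the combination against dexamethasone, 0 of 13 passed, where 0.113% of all tested did, 0.0698% higher and 0.043% lower. In the combination against vehicle, 0 of 13 members and 0 of 18625 probe sets passed with limma (0%), and 1139 had an unadjusted p under 0.05.

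**Figure D1:**
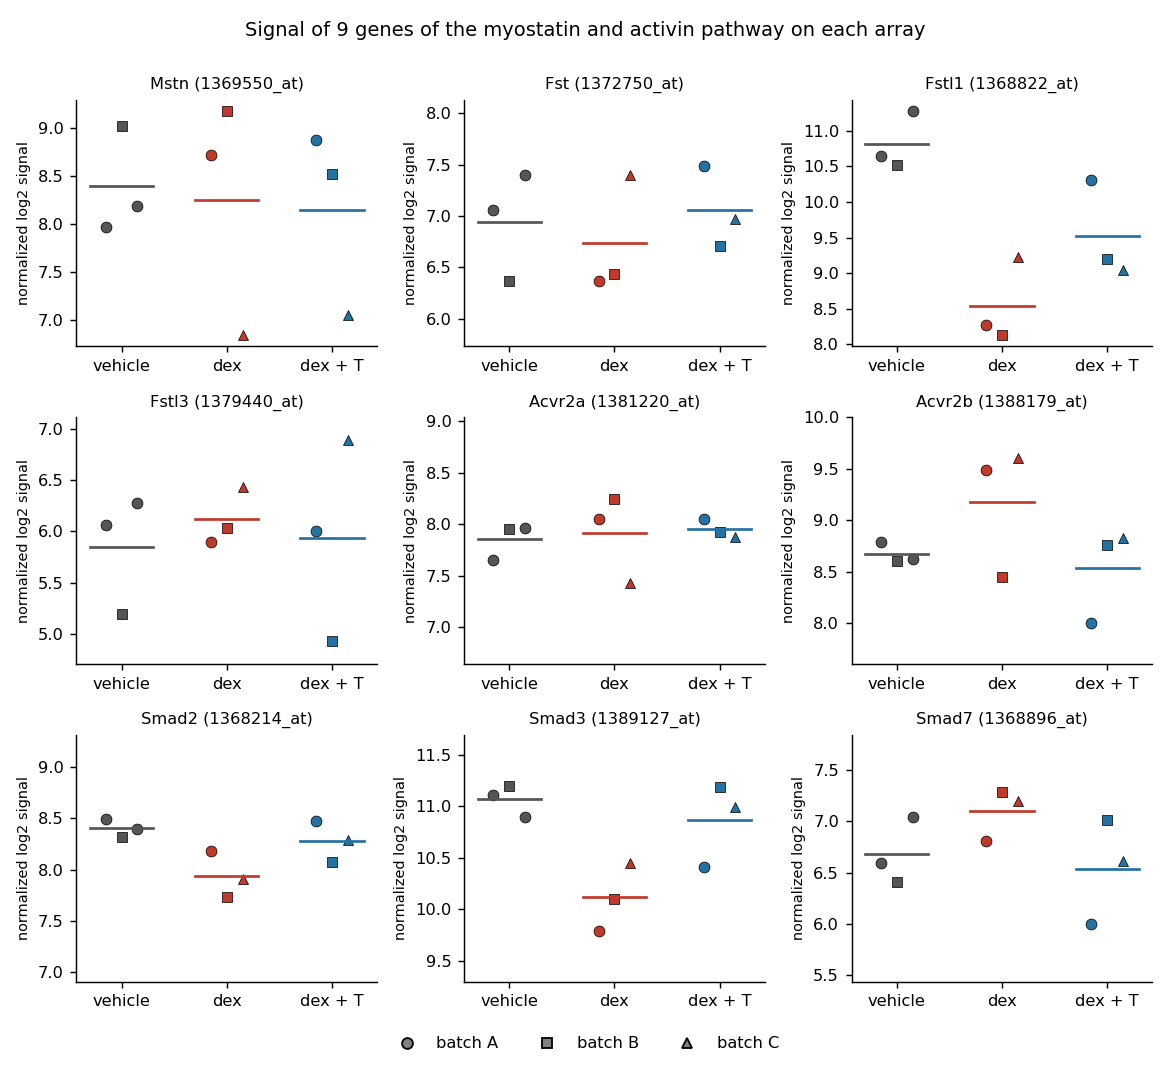
Normalized log2 signal (vertical axis, a separate range in each panel) of the brightest probe set of 9 genes on each array. Each point is 1 animal, its shape gives the technical batch, and the bar is the group mean of 3. In Fstl1 and Smad3 the 3 dexamethasone points lie below every vehicle point, and Mstn is lowest in the batch C arrays, at 6.84 and 7.05.

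The ligand itself, Mstn, had a level of 7.97, 9.02 and 8.19 in vehicle replicates 1, 2 and 3. It was 8.72, 9.18 and 6.84 in the dexamethasone replicates and 8.88, 8.52 and 7.05 in the combination replicates. The groups overlapped, and the lowest values of Mstn were those of the batch C arrays. Both batch C arrays lay below all 7 others for Mstn, as they did for 9.36% of all tested probe sets.

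The log2 change of Mstn with dexamethasone was -0.15 ± 0.65 SE (n = 3 per group, limma adjusted p = 0.938), with a 95% interval of -1.62 to 1.32. That interval reaches from 3.07-fold lower to 2.5-fold higher, so a change of either sign within it could not be detected. The direction turned without batch C, to 0.55 ± 0.35 (adjusted p = 0.464), and with batch as a block, to 0.41 ± 0.29 (adjusted p = 0.497). The difference was 0.64 in batch A alone and 0.16 in batch B alone. Leaving out vehicle replicate 2 also turned it, to 0.17, as did leaving out dexamethasone replicate 3 (0.55).

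Adding testosterone to dexamethasone left Mstn without a detectable difference. The log2 change from dexamethasone was -0.09 ± 0.65 (95% interval -1.56 to 1.37, adjusted p = 0.979), and the differences were 0.17, -0.66 and 0.21 within batches A, B and C. Against vehicle, the combination differed by -0.24 ± 0.65 (adjusted p = 0.962), and by 0.31 without batch C. The residual SD of Mstn about the group means was 0.96, at percentile 96.7 of all tested probe sets, whose median was 0.34. Mstn was thus among the members with the widest spread about the group means, which includes the low values of the batch C arrays.

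The genes whose profile over the 9 arrays was most like that of Mstn were Acadsb, an acyl-CoA dehydrogenase gene, Cwf19l2, Wac, Pcid2 and Syap1. Their Pearson correlations with Mstn ran from 0.949 for Syap1 to 0.974 for Acadsb and Cwf19l2 across the 9 arrays, which share their batches. They were picked as the highest among the 10428 genes with a tested probe set, so high values come with the selection. Over the 7 arrays outside batch C the same correlations were 0.881 for Acadsb, 0.979 for Cwf19l2, 0.943 for Wac, 0.836 for Pcid2 and 0.973 for Syap1. Those 7 arrays are among the 9 used to pick the genes, so they are not a separate check. In Acadsb the batch C arrays stood at 4.9 and 5.41, against 6.73 to 9.31 in the others. In Syap1 they stood at 9.02 and 8.99, against 9.12 to 9.42.

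**Figure D2:**
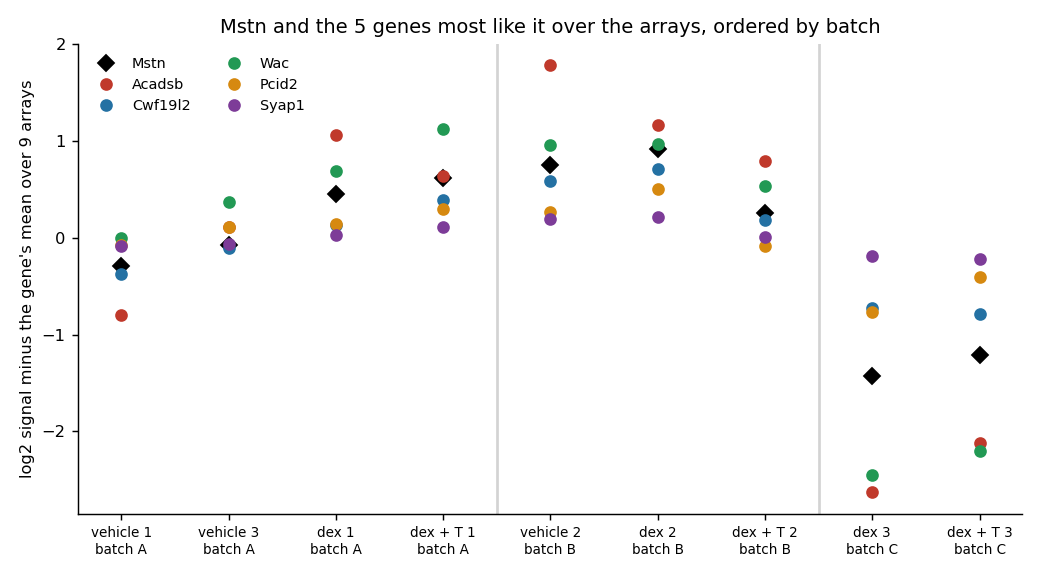
Log2 signal minus the gene's own mean over the 9 arrays (vertical axis) for Mstn (diamonds) and the 5 genes with the highest correlation with it, with arrays ordered by technical batch. All 6 genes are lowest in the 2 batch C arrays.

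Among the antagonists, Fst, which encodes follistatin, showed no detectable change. Its brighter probe set read 7.06, 6.37 and 7.4 in vehicle, 6.37, 6.43 and 7.4 in dexamethasone and 7.49, 6.71 and 6.97 in the combination. The lowest values were shared by vehicle and dexamethasone animals, so the groups overlapped. The log2 change was -0.21 ± 0.37 with dexamethasone (95% interval -1.03 to 0.62, adjusted p = 0.827) and 0.32 ± 0.37 from dexamethasone to the combination (adjusted p = 0.835).

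The dimmer Fst probe set varied more between animals. It read 7.21, 5.05 and 6.98 in vehicle, 5.89, 4.86 and 7.27 in dexamethasone and 7.36, 6.78 and 7.12 in the combination. The combination animals were close together while the other groups each held a value near 5. Both of those values were from replicate 2, in batch B, where the combination array read 6.78. The combination differed from dexamethasone by 1.08 ± 0.67 (95% interval -0.43 to 2.59, adjusted p = 0.629), with 1.47, 1.92 and -0.15 within batches A, B and C. Its residual SD of 0.99 was at percentile 97 of all tested probe sets.

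Fstl3, the second ligand antagonist, was dim. Its tested probe set read 6.06, 5.2 and 6.28 in vehicle, 5.9, 6.03 and 6.43 in dexamethasone and 6, 4.93 and 6.89 in the combination. Both batch C arrays lay above the other 7 for this probe set, as they did for 9.75% of all tested. The log2 change with dexamethasone was 0.27 ± 0.47 (adjusted p = 0.824) and that from dexamethasone to the combination was -0.18 ± 0.47 (adjusted p = 0.942). The other probe set lay between 4.27 and 5.44, near the floor, and was not tested.

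Fstl1 had 3 probe sets, and all 3 were lower in each dexamethasone array than in any vehicle array. The brightest read 10.65, 10.52 and 11.28 in vehicle, 8.28, 8.13 and 9.23 in dexamethasone and 10.31, 9.2 and 9.04 in the combination. Combination replicate 1 lay between the other groups, near vehicle, whereas replicates 2 and 3 lay within the dexamethasone range. With dexamethasone it fell by 2.27 ± 0.41 SE on the log2 scale, 4.82-fold (n = 3 per group, 95% interval -3.19 to -1.35, adjusted p = 0.0398).

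The middle Fstl1 probe set by brightness read 9.86, 10.1 and 10.38 in vehicle, 7.38, 8.16 and 8.65 in dexamethasone and 9.53, 9.15 and 8.77 in the combination. Here no animal of 1 group overlapped another group. It fell by 2.05 ± 0.34 with dexamethasone, 4.15-fold (adjusted p = 0.0324). The dimmest read 7.12, 8 and 7.84, then 6.09, 6.02 and 6.33, then 7.42, 6.37 and 6.65 in the 3 groups in that order. Its log2 change of -1.51 ± 0.32 did not pass (adjusted p = 0.0631). Arrays did not overlap between dexamethasone and vehicle for 5 of 13 member probe sets, all lower, where 22.9% of all tested did not overlap and 10.4% were lower; 3 of the 5 share the gene Fstl1.

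The fall of Fstl1 had the same sign in each batch that holds both groups. Each such batch holds 1 dexamethasone array, so these differences are not replicated within a batch and use arrays of the main fit. Within batch A the 3 probe sets differed by -2.68, -2.74 and -1.4, and within batch B by -2.39, -1.94 and -1.98, from the brightest to the dimmest. Without batch C both called probe sets passed, at -2.61 (adjusted p = 0.019) and -2.35 (adjusted p = 0.0171). With batch as a block neither did, at -2.23 (adjusted p = 0.06) and -2.12 (adjusted p = 0.0556).

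The call depended on single arrays as well. Neither Fstl1 probe set passed without vehicle replicate 1 (adjusted p = 0.117 and 0.102), vehicle replicate 2 (0.128 and 0.126) or vehicle replicate 3 (0.169 and 0.154). The same held without dexamethasone replicate 1 (0.156 and 0.0922), dexamethasone replicate 2 (0.0968 and 0.0784) and combination replicate 2 (0.0707 and 0.0642). In those fits the log2 changes stayed between -2.42 and -1.71. The mean of the 3 probe sets fell by 1.94 ± 0.31 (adjusted p = 0.023).

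With testosterone added, Fstl1 was higher than with dexamethasone alone by 0.97 ± 0.41, 1.09 ± 0.34 and 0.67 ± 0.32 in the 3 probe sets, and none passed (adjusted p = 0.428, 0.271 and 0.498). Each batch holds 1 array of each of these 2 groups. The brightest probe set differed by 2.03, 1.07 and -0.18 within batches A, B and C, and the middle one by 2.14, 1 and 0.12. The dimmest differed by 1.34, 0.34 and 0.32. Arrays of these groups did not overlap for 2 of 13 member probe sets, the middle and the dimmest of Fstl1, both higher, where 14.6% of all tested did not overlap and 7.24% were higher and 7.35% lower. Without combination replicate 1, the array with low slow fibre markers, the difference of the brightest probe set was 0.57 (adjusted p = 0.691), and without batch C it was 1.55 (adjusted p = 0.183). For the middle one these were 0.9 (adjusted p = 0.518) and 1.57 (adjusted p = 0.117). Against vehicle the combination differed by -1.3 ± 0.41, -0.97 ± 0.34 and -0.84 ± 0.32 (adjusted p = 0.802, 0.802 and 0.815). Those 3 Fstl1 probe sets were the member probe sets with an unadjusted p under 0.05 in that comparison, where 6.12% of all tested had one. Arrays of the combination and vehicle did not overlap for 2 of 13, the brightest and the middle of Fstl1, both lower, where 13.3% of all tested did not overlap, 7.53% higher and 5.79% lower.

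Markers of fibroblasts, a mesenchymal cell type of muscle, moved beside Fstl1. The mean of 9 fibroblast markers, none of them Fstl1, differed from the vehicle mean by -2.18, -1.21 and -0.54 in dexamethasone replicates 1, 2 and 3 and by -0.24, -0.83 and -1.08 in the combination replicates. For the brightest Fstl1 probe set the same differences were -2.53, -2.69 and -1.59, then -0.5, -1.62 and -1.77. For the middle one they were -2.73, -1.96 and -1.46, then -0.59, -0.96 and -1.35. The markers and the middle probe set were furthest from vehicle in dexamethasone replicate 1, whereas the brightest was furthest in replicate 2; all 3 were nearest vehicle in combination replicate 1. In dexamethasone replicate 3 the markers differed by -0.54 and Fstl1 by -1.59 and -1.46. Of the 9 markers all had log2 changes below 0 with dexamethasone, with a median of -0.92 against 0.04 over all 10428 genes tested, and 1 passed, the microfibril gene Mfap5 (-1.75 ± 0.29, adjusted p = 0.0338). Means of all fibroblast markers ran from 10.19 to 10.64 in vehicle, 8.29 to 9.94 in dexamethasone and 9.4 to 10.23 in the combination. Muscle fibre markers differed from their vehicle mean by -0.21 to -0.04 in the 6 treated arrays. Quantile normalization restricts such differences among the brightest probe sets, so these small values say little about fibre content. With dexamethasone 5 of the 11 had changes above 0 and 6 below (median -0.04), and none passed. Pvalb was lower in every dexamethasone array than in any vehicle array (-0.92 ± 0.21, adjusted p = 0.082). Of 7 endothelial markers, 6 had changes below 0 with dexamethasone (median -0.6) and none passed; their mean ran from 8.54 to 8.85 in vehicle, 8.07 to 8.47 in dexamethasone and 8.15 to 8.45 in the combination, with no overlap between vehicle and either treated group. Of 4 tendon markers, 3 had changes below 0 (median -0.65) and none passed, with means of 7.94 to 8.75 in vehicle, 6.73 to 8.39 in dexamethasone and 7.35 to 8.03 in the combination. Other lists were mixed. Means of 3 satellite cell markers were 7.72 to 8.1 in vehicle and 8.12 to 8.66 in dexamethasone (median change 0.92). Those of 5 adipocyte markers were 5.67 to 5.97 and 6.25 to 6.51 (median change -0.01 over the 3 tested). Median changes were -0.22 for macrophage, -0.11 for smooth muscle and pericyte, -0.18 for Schwann cell and 0.25 for slow fibre markers. The 1 tested neutrophil marker had a change of 1.08. None of these passed. The part that the content of any of these cell types has in the change of Fstl1 was not tested. In whole muscle, fewer cells of a type and less RNA per cell cannot be told apart.

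**Figure D3:**
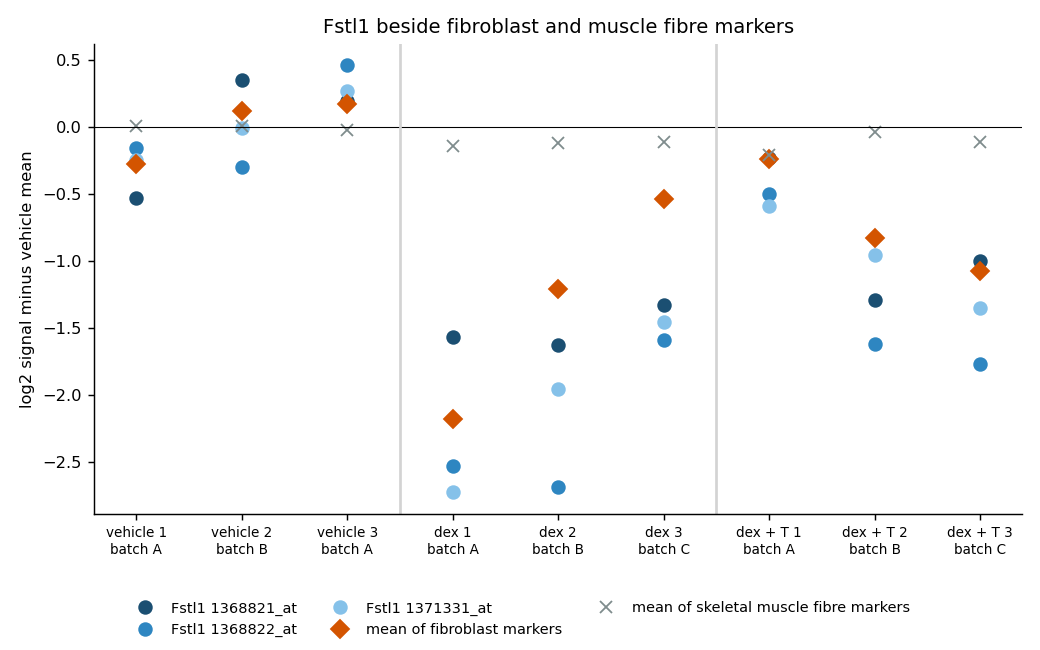
Log2 signal minus the vehicle mean (vertical axis) on each array for the 3 Fstl1 probe sets (circles), the mean of 9 fibroblast markers (diamonds) and the mean of 11 muscle fibre markers (crosses). Fstl1 lies between -2.73 and -1.33 in the dexamethasone arrays, where the fibroblast mean lies between -2.18 and -0.54. The muscle fibre mean stays near 0, at signal levels where quantile normalization restricts differences between arrays.

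Of the type II receptors, Acvr2b, a main receptor for myostatin, read 8.79, 8.6 and 8.62 in vehicle. It was 9.49, 8.45 and 9.6 in dexamethasone and 8, 8.76 and 8.83 in the combination. Dexamethasone replicates 1 and 3 were above all other arrays, whereas replicate 2 was below every vehicle array. The log2 change with dexamethasone was 0.51 ± 0.34 (95% interval -0.25 to 1.27, adjusted p = 0.519), with 0.78 within batch A and -0.15 within batch B. From dexamethasone to the combination it was -0.65 ± 0.34 (adjusted p = 0.535), with -1.49, 0.31 and -0.78 within batches A, B and C, and -0.39 without combination replicate 1.

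Acvr2a, the other activin type II receptor, had the narrowest range of the receptors. It read 7.65, 7.95 and 7.96 in vehicle, 8.05, 8.25 and 7.43 in dexamethasone and 8.05, 7.92 and 7.88 in the combination. All groups overlapped. Its change with dexamethasone was 0.05 ± 0.24 (adjusted p = 0.939), and the 95% interval of -0.48 to 0.58 leaves out differences above 1.5-fold higher or 1.39-fold lower. From dexamethasone to the combination it was 0.04 ± 0.24 (adjusted p = 0.977).

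Of the Smads that the receptors phosphorylate, Smad3 was lower with dexamethasone in every animal but did not pass. Its bright probe set read 11.11, 11.2 and 10.9 in vehicle, 9.79, 10.1 and 10.45 in dexamethasone and 10.41, 11.19 and 10.99 in the combination. Every dexamethasone array was below every vehicle array, and combination replicates 2 and 3 were within the vehicle range. The log2 change with dexamethasone was -0.96 ± 0.26 (1.94-fold lower, 95% interval -1.54 to -0.38, adjusted p = 0.116). The difference was -1.21 in batch A alone, -1.1 in batch B alone and -1.14 ± 0.2 after blocking on batch (adjusted p = 0.0553).

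Smad3 kept that sign under all 21 alternative settings, at -1.14 to -0.8, and passed under none of them (lowest adjusted p = 0.0532). From dexamethasone to the combination it differed by 0.75 ± 0.26 (95% interval 0.17 to 1.33, adjusted p = 0.321), by 0.62, 1.1 and 0.54 within batches A, B and C. The combination differed from vehicle by -0.2 ± 0.26 (adjusted p = 0.918). A dimmer Smad3 probe set was not tested. It read 5.92, 7.27 and 5.58 in vehicle, 4.42, 6.06 and 4.18 in dexamethasone and 6.06, 5.81 and 5.37 in the combination, with overlap between all groups.

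Smad2 moved by less. It read 8.49, 8.32 and 8.39 in vehicle, 8.18, 7.73 and 7.91 in dexamethasone and 8.47, 8.07 and 8.29 in the combination. The dexamethasone arrays again lay below the vehicle arrays. The log2 change was -0.46 ± 0.19 with dexamethasone (95% interval -0.9 to -0.02, adjusted p = 0.297), with -0.26 and -0.59 within batches A and B. From dexamethasone to the combination it was 0.34 ± 0.19 (adjusted p = 0.586), with 0.3, 0.34 and 0.39 within batches A, B and C. Its residual SD of 0.18 was the smallest of the 13 tested member probe sets.

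The inhibitory Smad7 had 2 tested probe sets, both with means above vehicle in dexamethasone. The brighter read 6.59, 6.41 and 7.04 in vehicle, 6.81, 7.28 and 7.2 in dexamethasone and 6, 7.01 and 6.61 in the combination. The dimmer read 5.63, 6.32 and 5.68, then 6.14, 6.89 and 5.89, then 6.21, 6.15 and 6.26. Groups overlapped in both. The changes with dexamethasone were 0.42 ± 0.29 (adjusted p = 0.542) and 0.43 ± 0.29 (adjusted p = 0.529), and those from dexamethasone to the combination were -0.55 ± 0.29 and -0.1 ± 0.29 (adjusted p = 0.546 and 0.947). The remaining probe set was dim and not tested. It read 5.53, 5.47 and 5.54 in vehicle, 5.85, 5.79 and 5.25 in dexamethasone and 4.87, 5.41 and 4.89 in the combination. Its combination arrays lay below the vehicle arrays.

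**Figure D4:**
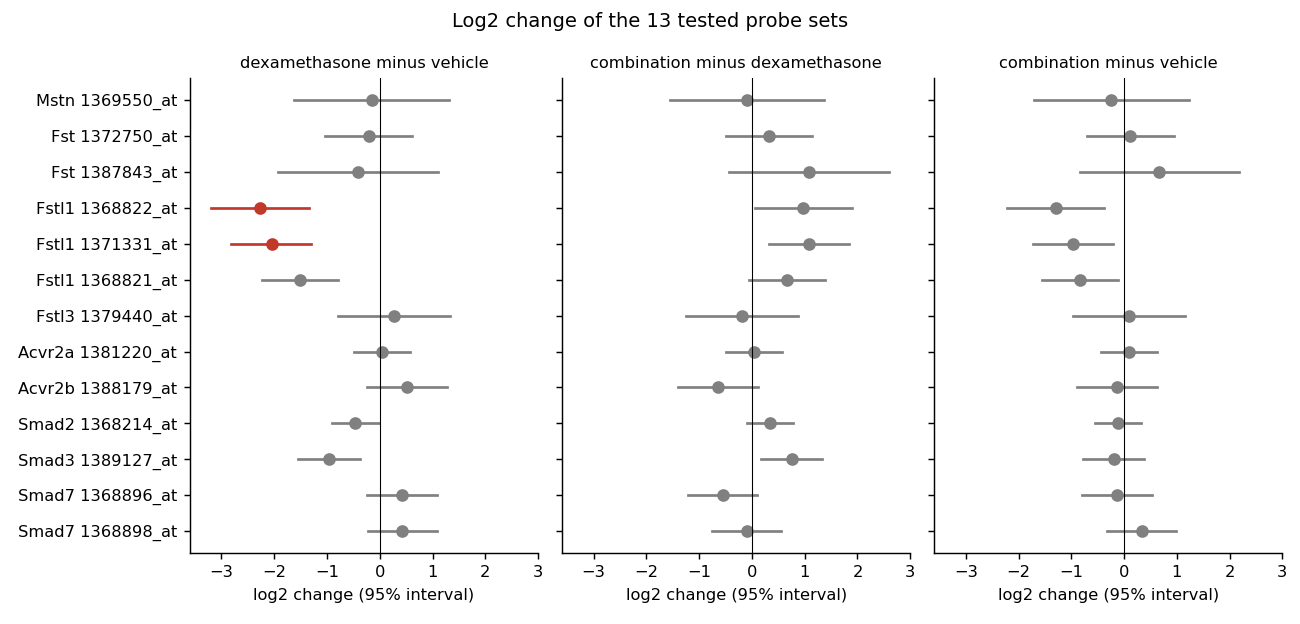
Log2 change (horizontal axis) of the 13 tested member probe sets in the 3 comparisons, with the 95% interval of the limma fit as a line. The 2 red points, of Fstl1 with dexamethasone, are the ones that passed at an adjusted p under 0.05; their changes are -2.27 and -2.05.

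The members' changes were of both signs in each comparison. With dexamethasone, 5 of 13 probe sets had log2 changes above 0 and 8 below, with a median of -0.21 against 0.01 over all tested probe sets. The median size of a change was 0.43 against 0.28. From dexamethasone to the combination 8 were above 0 and 5 below, with a median of 0.32 against 0. These figures count each probe set of a gene separately. With 1 probe set for each of the 9 genes, the median was -0.15 with dexamethasone (4 above 0, 5 below). From dexamethasone to the combination it was 0.04 (5 above 0, 4 below). These 2 comparisons share the dexamethasone arrays. At an unadjusted p under 0.05, 5 of 13 member probe sets differed with dexamethasone (15.5% of all tested), 3 of 13 with testosterone added (11%) and 3 of 13 between the combination and vehicle (6.12%). Fstl1 accounts for 3, 2 and 3 of these.

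Among the further genes of the pathway, those that passed all fell with dexamethasone. Of 59 other ligands, regulators, receptors, Smad partners and target genes that were tested, 3 fell, 0 rose and 56 did not pass, with a median log2 change of -0.16 against 0.04 over all genes. Of all 10428 genes tested, 1.3% passed in this comparison and 0.566% passed as lower. From dexamethasone to the combination, and from vehicle to the combination, 0 of 59 passed, where 0.144% and 0% of all genes did.

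Among 11 tested ligand genes none passed with dexamethasone, and 8 had changes below 0 (median -0.28). Tgfb1, a cytokine that drives matrix production, had a change of -1.19 ± 0.55 (adjusted p = 0.348) and Tgfb3 one of -0.73 ± 0.23 (adjusted p = 0.166). Tgfb1 read 6.71, 7.38 and 7.02 in vehicle and 6.53, 4.54 and 6.47 in dexamethasone, so replicate 2 was the farthest; without it the change was -0.53 ± 0.41 (adjusted p = 0.54). Tgfb2 stood at -0.38 ± 0.24 (adjusted p = 0.508). Inhba, which encodes the activin A subunit, stood at -0.09 ± 0.25 (adjusted p = 0.898), and Gdf11, the closest relative of myostatin, at -0.28 ± 0.3 (adjusted p = 0.706). Inhbb, the activin B subunit gene, was too dim to be tested.

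Of 10 tested extracellular regulators, 2 fell, 0 rose and 8 did not pass (median -0.6). Nbl1, which encodes a secreted BMP antagonist, read 9.23, 9.41 and 9.5 in vehicle, 7.62, 8.2 and 8.2 in dexamethasone and 9.19, 9.1 and 8.93 in the combination. It fell by 1.37 ± 0.21 (adjusted p = 0.0306), and its change was -1.41 after blocking on batch (adjusted p = 0.0449). Ltbp4, which stores latent TGF-beta in the matrix, read 9.87, 10.08 and 10.35 in vehicle, 8.05, 8.83 and 9.05 in dexamethasone and 9.09, 9.21 and 8.79 in the combination. It fell by 1.46 ± 0.28 (adjusted p = 0.0497), a call that ended after blocking on batch (adjusted p = 0.0649). Testosterone added to dexamethasone gave Nbl1 a difference of 1.07 ± 0.21 that did not pass (adjusted p = 0.1).

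The 9 tested receptors and co-receptors and the 13 tested Smads and Smad partners held no call in any comparison. With dexamethasone their medians were -0.14 and 0.09. The type I receptor gene Tgfbr1 had a change of 0.54 ± 0.23 (adjusted p = 0.297), the common Smad4 one of 0.31 ± 0.18 (adjusted p = 0.472) and Skil, a Smad corepressor gene, one of 0.19 ± 0.25 (adjusted p = 0.767). Acvr1c was too dim to be tested, and Acvr1b had no probe set with its symbol.

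Of 16 tested genes known as targets of TGF-beta or BMP signalling, 1 fell, 0 rose and 15 did not pass with dexamethasone (median -0.6). Their changes went both ways, 6 above 0 and 10 below, and ranged from -3 to 2.48. The one that passed was Fn1, which encodes the matrix protein fibronectin. Fn1 read 10.36, 10.7 and 10.96 in vehicle, 8.33, 8.17 and 8.79 in dexamethasone and 10.21, 8.81 and 8.95 in the combination. The combination animals ranged from near the vehicle level in replicate 1 to near the dexamethasone level in replicates 2 and 3. Its change with dexamethasone was -2.24 ± 0.37 (adjusted p = 0.0324), and -2.17 after blocking on batch, which did not pass (adjusted p = 0.0556). The calls of Nbl1, Ltbp4 and Fn1 all ended without any 1 of the vehicle arrays (adjusted p from 0.0953 to 0.197). They also ended without dexamethasone replicate 1 (0.0845, 0.128 and 0.128 in that order), dexamethasone replicate 2 (0.0616, 0.0855 and 0.0823) or combination replicate 2 (0.0603, 0.0826 and 0.0573). That of Ltbp4 ended as well without combination replicate 1 (0.065) or 3 (0.0513). The part of the fibroblast markers given above in these changes was not tested.

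**Figure D5:**
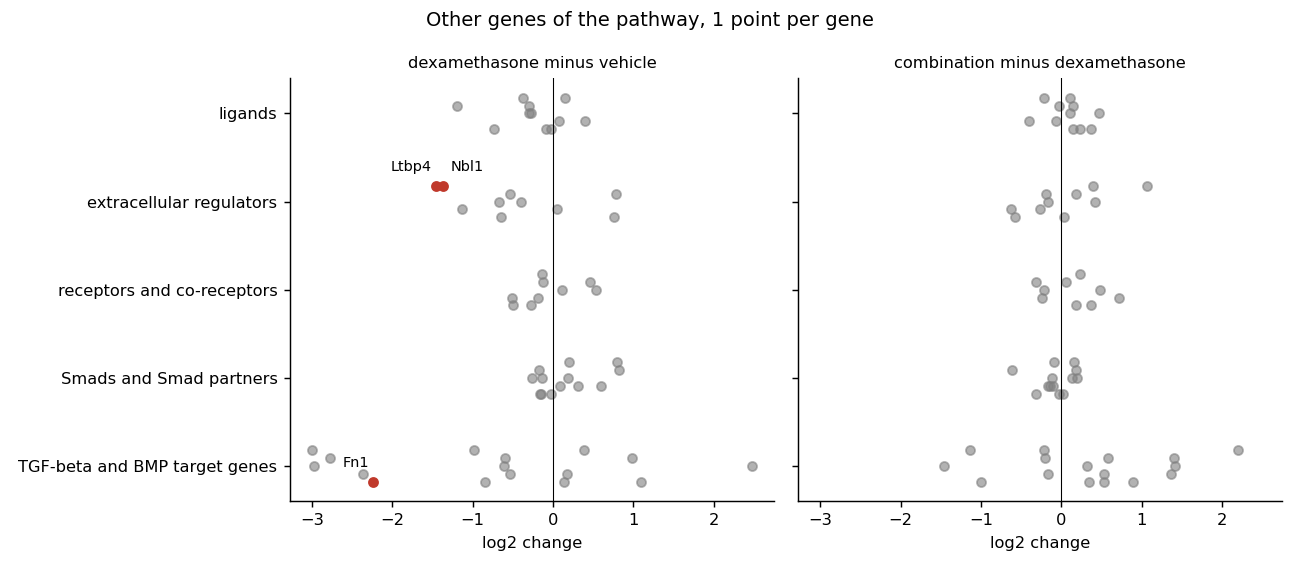
Log2 change (horizontal axis) of other genes of the pathway, 1 point per gene by role, with dexamethasone against vehicle on the left and with testosterone added to dexamethasone on the right. The 3 red points, Nbl1, Ltbp4 and Fn1, passed at an adjusted p under 0.05; no gene passed on the right.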

How the data were processed

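Total RNA of 9 gastrocnemius samples was hybridised to Affymetrix rat expression arrays, per the labels. The authors deposited linear intensities, 1 signal per probe set; no source used here names the signal algorithm. The mean without the lowest and highest 2% of values was 500 in 5 arrays and differed in the other 4, so quantile normalization of log2(intensity + 16) was applied. After leaving out 57 controls and every probe set whose average fell under percentile 40, 18625 probe sets were fitted with limma 3.58.1 in R 4.3.3 (lmFit, eBayes, a mean per group over all 9 arrays). The fit was checked on simulated data with independent noise and no batches, so that check does not cover batch effects. Benjamini-Hochberg adjustment ran over all tested probe sets with a threshold of 0.05; p-values, standard errors and 95% intervals are from this fit unless another is named. The number of arrays limits the precision.

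Members were matched by the platform annotation's symbol; other genes were updated by gene ID to GRCr8 and represented by their tested probe set with the highest mean. Members and lists were chosen with earlier results of these data known. The rule for named genes takes all members, 12 partner genes, of which 1 is not reported here, every other pathway gene past the threshold and the 5 genes most correlated with Mstn. The batches were read from the deposited scale and spike signals, with the Gapdh ratio as a quality measure.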

Additional observations from a re-analysis of the deposited data

How the results depend on the processing

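Of the 13 member probe sets tested, 8 kept the direction of their change with dexamethasone under every alternative setting run, among them the 3 of Fstl1, Smad3 and Smad2. For the step from dexamethasone to the combination 9 did, and for the combination against vehicle 5 did. The 2 member calls with dexamethasone became 1 with scaling to a common 75th percentile, 1 with scaling to a common trimmed mean, 1 when only the 2 groups compared were fitted, and 0 with a pseudocount of 1, with no filter, with the replicate number as a block or with batch as a block. The count was 3 with a pseudocount of 64, a filter at the 60th percentile or an intensity trend with robust variance, and 2 without batch C. It ran from 0 to 3 as each array was left out. Calls over all probe sets ran from 196 to 131 and 141 with the scalings, 123 with only the 2 groups, 179 with batch as a block, 54 with a pseudocount of 1, 48 with no filter, 13 with the replicate block, 414 with a pseudocount of 64, 469 with the stricter filter, 510 with the trend and 444 without batch C, and from 1 to 333 as each array was left out; the cause was not tested. No member passed in the other 2 comparisons under any setting run.

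Directions turned only in changes that did not pass. With dexamethasone, Mstn went to 0.41 with batch as a block and 0.55 without batch C, and Acvr2a to -0.08 with trimmed mean scaling. From dexamethasone to the combination, Acvr2a went to -0.17 without batch C. Against vehicle, the combination's Mstn went to 0.31 with batch as a block or without batch C, its brighter Fst probe set to -0.01 and -0.12 with the 75th percentile and trimmed mean scalings, its Fstl3 to -0.04 and -0.15 with these scalings, -0.11 with batch as a block and -0.39 without batch C, its Acvr2a to -0.05 with trimmed mean scaling, and its Smad7 to 0.09 as the mean of its probe sets. As each array was left out, changes with dexamethasone ran from -0.62 to 0.55 for Mstn, -0.54 to 0.02 and -1.09 to 0.17 for the brighter and dimmer Fst probe sets, -0.05 to 0.49 for Fstl3 and -0.12 to 0.29 for Acvr2a. From dexamethasone to the combination they ran from -0.8 to 0.45 for Mstn, -0.31 to 0.19 for the dimmer Smad7 probe set, -0.66 to 0.32 for Fstl3 and -0.2 to 0.21 for Acvr2a. Against vehicle they ran from -0.61 to 0.31 for Mstn, -0.37 to 0.13 for the brighter Smad7 probe set, -0.18 to 0.34 and -0.01 to 1.07 for Fst, -0.39 to 0.6 for Fstl3, -0.01 to 0.14 for Acvr2a, -0.29 to 0.12 for Acvr2b and -0.37 to 0.02 for Smad3. The cause was not tested.

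The labels do not say that replicate numbers pair the arrays, and deviations from the group means correlated above 0.1 in 5 of 9 same-number pairs (from -0.2 to 0.59), so the numbers were not taken as pairs. The replicate 2 pairs correlated at 0.14 to 0.37 and the replicate 3 pair within batch C at 0.59; 7 of the 9 pairs share a batch, so number and batch are largely confounded. Of the 9 arrays, 6 correlated best with an array of their own number. The settings for Nbl1, Ltbp4, Fn1 and the partner genes were run after seeing the data. Dim probe sets near the floor, such as those of Fstl3, limit what could be detected.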
